A study of Mus musculus with 12 samples.

Results

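The genotype by oxygen interaction asks, gene by gene, whether B cells that lack HIF-1α answer hypoxia differently from wild-type (WT) B cells. It is the hypoxia response of the HIF-1α-deficient cells (KO) minus the hypoxia response of the WT cells on the log2 scale, so that a negative value means a smaller rise or a larger fall in KO cells. All genes of the read-count table entered, 46983 Ensembl identifiers over all 12 of the 12 libraries, and 17506 of them passed the filter for low counts and were tested. Read counts came from bone marrow B cells of mice that had been isolated with magnetic beads and cultured, with 3 libraries in each of 4 groups. These were KO cells in hypoxia, KO cells in normoxia, WT cells in hypoxia and WT cells in normoxia. In the study's deletion model, Hif1a f/f Mb1 cre/+, loxP-flanked Hif1a alleles were removed by a Cre recombinase knocked into the Mb1 locus (Cd79a), which acts from the earliest B cell stages, so that Hif1a loss, Cre and the loss of a working Cd79a copy cannot be told apart in a comparison with WT cells. Littermates served as the study's controls, either Cre-negative or Mb1 cre/+, but which of these gave the WT libraries, and whether each library stands for another mouse, is not given in the labels or methods, so p-values measure the spread between these libraries only.

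HIF-1α is the oxygen-regulated partner in a paired transcription factor. In the presence of oxygen its prolines are hydroxylated and the protein is destroyed, and in hypoxia it accumulates, pairs with ARNT and binds a short DNA core in hypoxia response elements. Its best known targets move cells to glycolysis, hold pyruvate out of the mitochondria, remove mitochondria by mitophagy and send out signals such as VEGF, and HIF-2α, encoded by Epas1, can bind the same core.

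Total counts were 27629175 to 36880082 per library. Cd79a, which checks the genotype labels, had 784, 836 and 789 CPM (counts scaled to the size and composition of the library) in KO hypoxia and 881, 776 and 819.8 in KO normoxia, against 1505, 1637 and 1460.2 in WT hypoxia and 1596, 1913 and 1499 in WT normoxia. Every KO library was below every WT library. Mb1 cre/+ controls would carry the same Cre allele in Cd79a as KO cells. The difference is therefore what Cre-negative controls would give, though no label names them. Hif1a itself had an interaction of 0.15 ± 0.14 SE (edgeR adjusted p = 0.809). This is no check on the deletion, since a genotype difference shared by both conditions cancels out of the interaction. The total of the gene also includes exons that the deletion leaves. Genes of other marrow cells were also present. The summed level of the 17 monocyte and macrophage genes (CPM scaled by total counts) was 1830 to 2860 CPM in KO hypoxia and 2810 to 3680 in KO normoxia, against 2980 to 3940 in WT hypoxia and 3640 to 4320 in WT normoxia. Such a sum follows its most abundant genes, and the median response of the 17 was 0.68 in KO cells and 0.45 in WT cells. In KO cells 7 were called higher and 6 lower, and in WT cells 4 and 5. Of all genes tested, 14.5% were called higher and 15.7% lower in KO cells, and 11.4% and 16.3% in WT cells. The neutrophil genes summed to 3320 to 4870 CPM in KO hypoxia and 1360 to 4650 in KO normoxia, against 4400 to 7740 in WT hypoxia and 2910 to 5970 in WT normoxia. KO normoxia library 1 had the lowest mean neutrophil level of its group (4.76 log2 CPM, against 5.78 and 6.67). Y-linked reads were present in WT hypoxia and WT normoxia libraries 1 and 2 and absent from library 3 of either. KO libraries had none except KO hypoxia library 1 (46.0 CPM, against 310.0 to 396.3 CPM in the WT libraries that carried them). Xist, the RNA of the inactive X chromosome, had 0.57 to 0.75 CPM in those WT libraries. It had 1368 to 2120 CPM in all other libraries, with 1785 in KO hypoxia library 1. By these reads sex partly followed genotype, so sex and genotype cannot be fully told apart. In bulk RNA, fewer cells of a type and less RNA per cell cannot be told apart.

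The hypoxia response differed between the genotypes for 73 genes, 0.417% of the genes tested, with edgeR's quasi-likelihood fit and Benjamini-Hochberg adjusted p-values below 0.05 over all genes. The KO response was the lower one for 55 genes (0.314% of the genes tested) and the higher one for 18 genes (0.103%). At an unadjusted p under 0.05 there were 1787 genes, 10.2% of those tested, and they divided into 844 lower (4.82%) and 943 higher (5.39%). DESeq2 called 327 of the 12413 genes to which it gave an adjusted p (2.63%), among them all 71 of the 73 genes with such a value. For the 55 genes the median interaction was -1.22, with a median response of 0.53 in KO cells and 1.85 in WT cells. For the 18 genes it was 0.77, with a median response of 0.44 in KO cells and -0.32 in WT cells. The median interaction of all genes tested was 0.03.

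**Figure D1:**
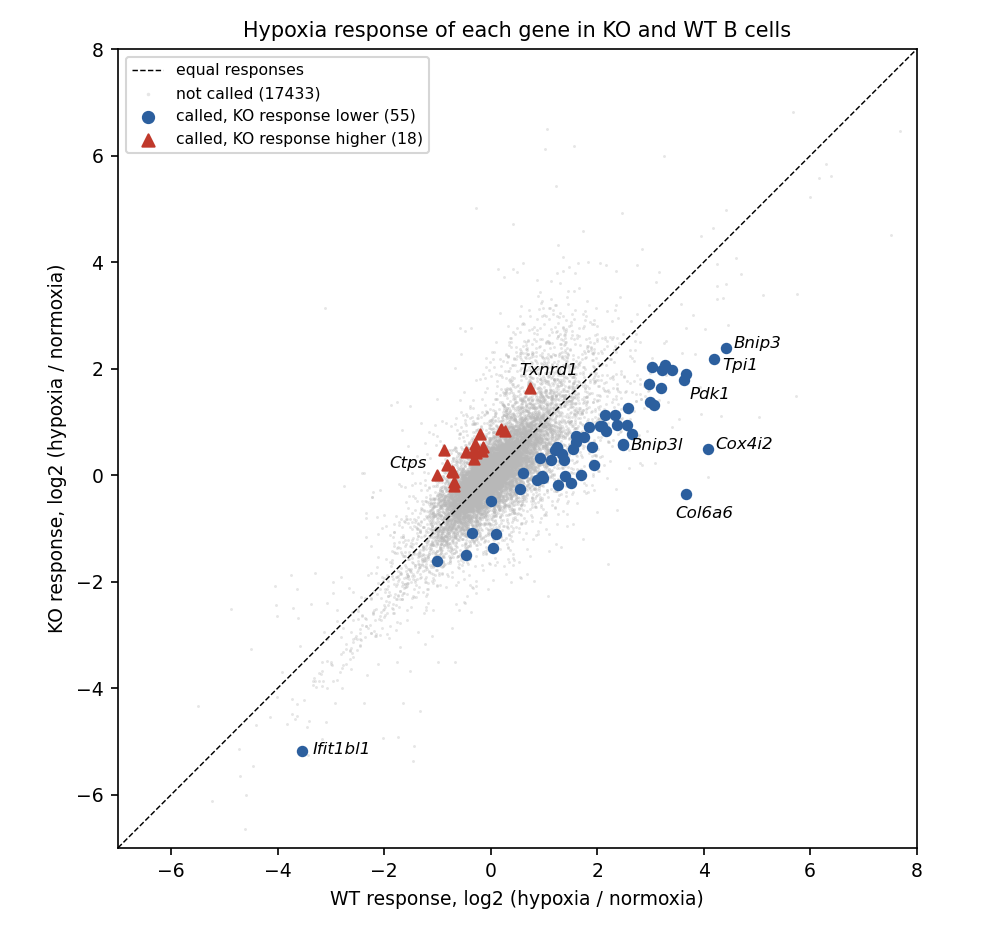
Log2 response to hypoxia of each tested gene in KO cells (vertical axis) against WT cells (horizontal axis), with genes called in the interaction as blue circles (KO response lower, 55 genes) and red triangles (KO response higher, 18 genes), and the dashed line where both responses are equal (7 genes lie outside the axes). Most blue circles lie to the right of 0 and below the line, such as Bnip3 at 2.39 in KO and 4.41 in WT, while Ifit1bl1 fell in both genotypes.

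By the medians of the called genes, nearly all of the difference lay in the hypoxic libraries. KO against WT, the 55 genes had a median difference of -1.31 under hypoxia and -0.04 under normoxia, and the 18 genes one of 0.76 under hypoxia and -0.02 under normoxia. The KO hypoxia and WT hypoxia libraries did not overlap for any of the 73 genes, which is the contrast that the interaction contains, against 31.7% of all genes tested. Under normoxia the genotypes did not overlap for 15 of the 55 and 5 of the 18 genes, against 12.5% of all genes tested. Under normoxia edgeR called 4 genes (0.0228%) between KO and WT, among them Cd79a, Narf and Ankrd37, the last picked after its values were seen.

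Within the groups the libraries were not alike. WT hypoxia library 3 was the lowest of the 3 WT hypoxia libraries for 43 of the 55 genes, against 37.7% of all genes tested, and KO hypoxia library 3 was the highest KO hypoxia library for 40 of the 55, against 31.8% of all genes tested. Of the 18 genes, WT hypoxia library 3 was the highest of its group for 13 (36.1% of all genes tested) and KO hypoxia library 3 for 10. Without WT hypoxia library 3, 103 genes were called lower and 121 higher. Without WT library 3 of both conditions, a fit chosen after seeing the data, the median of the 55 genes was -1.31, and with only the libraries free of Y-linked reads it was -0.99. Of the 55 genes 14 stayed called when each of the 12 libraries was left out in turn, and of the 18 genes 0 did. All 73 kept their direction in those fits and in every other setting tried. With the replicate number as a block over all groups, 64 of the 73 stayed called. Of the named genes Bnip3, Pgk1, Pkm, Fam162a, Cox4i2, Col6a6 and Ccl25 did not, and a block within genotype lost Endou and Ccl25. With the mean monocyte and neutrophil levels as covariates, 34 lower and 7 higher genes were called, and the median of the 55 genes was -1.21.

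Hypoxia response elements share the core ACGTG or GCGTG, which reads CACGT or CACGC on the other strand, and a CACGTG holds a match on both strands at once. The 200 bases before the transcription start are printed here for 5 genes with a lower KO response and 2 with a higher one, so that promoters of both directions can be read side by side, with every match in capitals. Sequences are from RefSeq on build GRCm38.p6, 5′ to 3′ on the gene's strand, and where several starts are listed the one with the most matches is shown. They lie at chr7:138909507-138909706 on the minus strand (Bnip3), chr2:71873024-71873223 on the plus strand (Pdk1), chr7:46845604-46845803 on the plus strand (Ldha), chr6:71632918-71633117 on the minus strand (Kdm3a), chr3:95882229-95882428 on the minus strand (Ciart), chr3:104638464-104638663 on the plus strand (Slc16a1) and chr4:120569460-120569659 on the minus strand (Ctps).
Bnip3: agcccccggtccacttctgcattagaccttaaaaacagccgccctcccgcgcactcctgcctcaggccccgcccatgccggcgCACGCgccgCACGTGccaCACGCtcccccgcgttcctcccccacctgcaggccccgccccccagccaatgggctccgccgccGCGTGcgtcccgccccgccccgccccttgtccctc
Pdk1: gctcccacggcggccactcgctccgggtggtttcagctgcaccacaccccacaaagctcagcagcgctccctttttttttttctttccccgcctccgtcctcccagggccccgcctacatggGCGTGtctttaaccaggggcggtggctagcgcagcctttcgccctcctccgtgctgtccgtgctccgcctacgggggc
Ldha: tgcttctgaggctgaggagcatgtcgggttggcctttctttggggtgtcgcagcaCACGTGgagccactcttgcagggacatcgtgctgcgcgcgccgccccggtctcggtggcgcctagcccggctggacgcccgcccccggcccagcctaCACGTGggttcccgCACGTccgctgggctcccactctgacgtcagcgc
Kdm3a: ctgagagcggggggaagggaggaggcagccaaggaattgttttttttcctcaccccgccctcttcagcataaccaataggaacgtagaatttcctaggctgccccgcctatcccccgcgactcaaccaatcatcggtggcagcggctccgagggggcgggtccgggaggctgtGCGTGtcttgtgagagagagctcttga
Ciart: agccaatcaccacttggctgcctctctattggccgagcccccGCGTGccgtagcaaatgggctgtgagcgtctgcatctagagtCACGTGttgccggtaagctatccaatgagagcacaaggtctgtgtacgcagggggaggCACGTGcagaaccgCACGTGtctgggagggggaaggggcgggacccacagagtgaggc
Slc16a1: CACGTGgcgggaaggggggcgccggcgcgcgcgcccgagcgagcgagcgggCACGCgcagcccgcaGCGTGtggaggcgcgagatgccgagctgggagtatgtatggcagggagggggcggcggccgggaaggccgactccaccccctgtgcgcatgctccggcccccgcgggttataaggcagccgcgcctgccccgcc
Ctps: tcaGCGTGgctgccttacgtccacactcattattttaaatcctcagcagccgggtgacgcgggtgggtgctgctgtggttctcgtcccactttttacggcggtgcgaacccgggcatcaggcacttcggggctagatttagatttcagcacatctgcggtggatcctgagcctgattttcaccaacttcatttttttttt

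The Ciart stretch holds 7 matches, the Bnip3 and Ldha stretches 5 each, Slc16a1 4, and Pdk1, Kdm3a and Ctps 1 each. Over the whole entries, from 250 bases before to 50 bases after the start, 42 of 60 promoters of the genes with a lower KO response held a match (70.0%, 45 of 55 genes found in the RefSeq table). For the genes with a higher KO response it was 17 of 19 promoters (89.5%, 14 of 18 genes found), against 58.8% of the 14597 promoters of all genes tested and 43.8% of all 32851 promoters in the table. A match is a stretch of letters and does not show binding.

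The gene with the smallest adjusted p was Bnip3l (ENSMUSG00000022051, chromosome 14, 66985239 to 67008877, mm10), which encodes a receptor on the outer mitochondrial membrane that marks mitochondria for mitophagy. It had 181, 185 and 176 CPM in KO hypoxia and 126, 115 and 121 in KO normoxia, against 750.2, 654 and 539.9 in WT hypoxia and 105, 128 and 115 in WT normoxia. The WT hypoxia libraries stood far above all others, the KO hypoxia libraries were only slightly raised, and the normoxia libraries of the genotypes overlapped. Bnip3l rose 1.5-fold in KO cells and 5.6-fold in WT cells, an interaction of -1.91 ± 0.15 (edgeR adjusted p = 0.000171), and the call held with each of the 12 libraries left out in turn (-1.99 to -1.76). It was also the only gene called when only the libraries free of Y-linked reads were fitted (-1.65). Its processed pseudogene Bnip3l-ps, with 11.1, 11.1 and 14.4 CPM in KO hypoxia against 50.2, 39.3 and 37.1 in WT hypoxia, had the same interaction of -1.91 ± 0.21 (edgeR adjusted p = 0.00227), and reads of the pair may have been assigned to either.

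Bnip3, the related mitophagy receptor, had 90.5, 75.1 and 129 CPM in KO hypoxia and 19.1, 19.5 and 17.7 in KO normoxia, against 515, 415 and 302 in WT hypoxia and 19.1, 21.3 and 17.5 in WT normoxia. Both genotypes were level in normoxia and both rose in hypoxia, KO cells 5.24-fold and WT cells 21.3-fold. The interaction was -2.02 ± 0.30 (edgeR adjusted p = 0.0181) and was no longer called without KO hypoxia library 1, KO normoxia library 1 or 2, WT hypoxia library 2 or any of the WT normoxia libraries. Fam162a, a mitochondrial protein linked to hypoxic cell death, had 11.999, 14.4 and 19.9 CPM in KO hypoxia and 8.71, 9.99 and 8.39 in KO normoxia, against 87.7, 75.3 and 44.3 in WT hypoxia and 10.6, 12.6 and 9.65 in WT normoxia. WT hypoxia library 3 was the lowest of its group, yet still above every KO library. Its interaction of -1.88 ± 0.34 (edgeR adjusted p = 0.0365) stayed called only without KO hypoxia library 3 or WT hypoxia library 3. Cox4i2, the isoform of a cytochrome c oxidase subunit used at low oxygen, was near the detection limit in all groups but one, at 0.275, 0.419 and 0.653 CPM in KO hypoxia and 0.167, 0.243 and 0.552 in KO normoxia, against 5.37, 4.29 and 2.57 in WT hypoxia and 0.145, 0.311 and 0.250 in WT normoxia. The WT hypoxia libraries were apart from the rest, and the interaction of -3.57 ± 0.70 (edgeR adjusted p = 0.0457) stayed called only without KO hypoxia library 3, WT hypoxia library 3 or WT normoxia library 2.

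Over the list of hypoxia-linked mitochondrial proteins, 4 of 15 tested genes were called lower and 0 higher, and the median interaction was -0.31 against 0.03 over all genes tested. The median response of the list was 0.50 in KO cells and 1.48 in WT cells, and its other 11 members lay between -3.01 and 0.59.

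Pdk1 encodes the kinase that blocks pyruvate dehydrogenase and so keeps pyruvate from being burned in mitochondria. It had 79.2, 71.3 and 108 CPM in KO hypoxia and 26.8, 24.8 and 23.1 in KO normoxia, against 398, 334 and 303 in WT hypoxia and 29.0, 25.6 and 28.6 in WT normoxia. The hypoxia groups did not overlap with each other or with the normoxia groups. Pdk1 rose 3.45-fold in KO cells and 12.4-fold in WT cells, an interaction of -1.85 ± 0.20 (edgeR adjusted p = 0.00227) that held with each library left out in turn. Pfkfb3, which makes the activator of phosphofructokinase, had 176, 153 and 185 CPM in KO hypoxia and 139, 141 and 139.5 in KO normoxia, against 379, 321 and 295 in WT hypoxia and 129.8, 114 and 139 in WT normoxia. The KO hypoxia libraries were little above normoxia, a rise of 0.29 ± 0.10 in KO cells against 1.38 ± 0.10 in WT cells. The interaction of -1.08 ± 0.14 (edgeR adjusted p = 0.00597) held in all 12 fits with a library left out. These were the 2 called genes, both lower, among 14 tested glycolysis and pyruvate dehydrogenase switches, whose median interaction was -0.05.

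**Figure D2:**
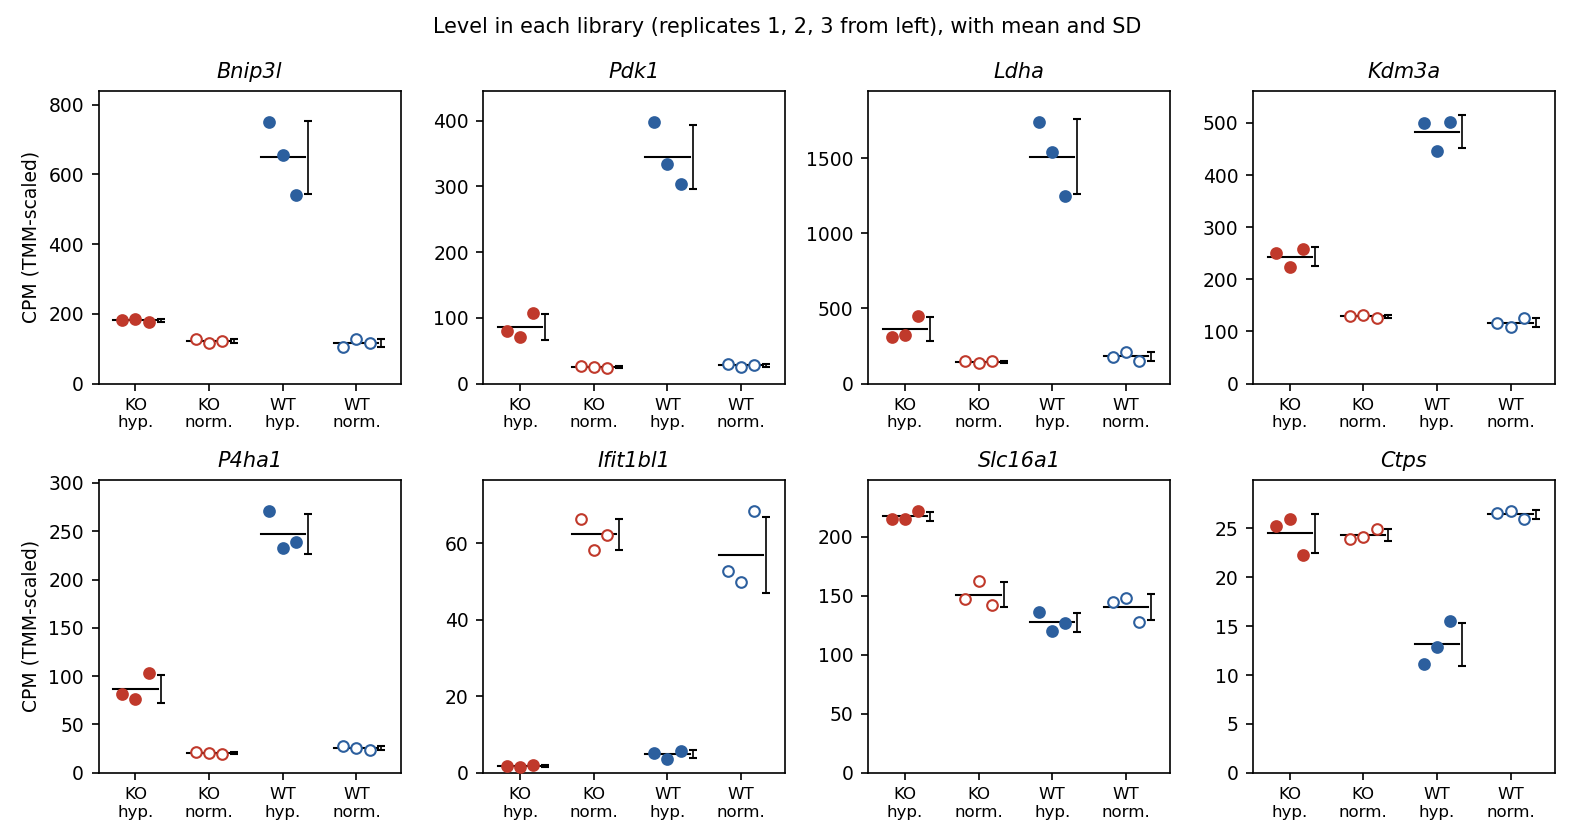
CPM (TMM-scaled) of 8 genes in each library, with KO hypoxia, KO normoxia, WT hypoxia and WT normoxia from left to right, filled circles for hypoxia and open circles for normoxia, a bar for the mean and whiskers for the SD (n = 3). Bnip3l, Pdk1, Ldha, Kdm3a and P4ha1 were highest in the WT hypoxia libraries, Ifit1bl1 fell in hypoxia in both genotypes, Slc16a1 was highest in the KO hypoxia libraries and Ctps fell in WT hypoxia only.

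Among the lists, glycolysis held the most called genes. Of 22 tested genes of glucose uptake and glycolysis, 10 were called lower and 1 higher, and the median interaction was -0.98. The list rose in both genotypes, with 17 genes called higher and a median of 1.18 in KO cells, and 18 called higher and a median of 2.27 in WT cells (14.5% and 11.4% of all genes tested were called higher in these responses). Of the 22 genes 14 were lower and 1 higher at an unadjusted p under 0.05 (4.82% and 5.39% of all genes tested). Without the libraries with Y-linked reads the median interaction was -0.73, and without KO hypoxia library 3 it was -1.14.

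Following the pathway, the glucose transporter gene Slc2a1 rose in both genotypes and was not called (-0.96 ± 0.25, edgeR adjusted p = 0.162). Gpi1, which turns glucose 6-phosphate into fructose 6-phosphate, had an interaction of -1.03 ± 0.16 (edgeR adjusted p = 0.0134), a call lost without KO hypoxia library 1, WT hypoxia library 1 or WT normoxia library 1. Pfkl, the liver-type phosphofructokinase of the committing step, had 117, 124 and 172 CPM in KO hypoxia and 44.0, 43.4 and 44.99 in KO normoxia, against 509, 463 and 379.9 in WT hypoxia and 50.8, 50.3 and 46.4 in WT normoxia. All KO hypoxia libraries were below all WT hypoxia libraries. Its interaction was -1.55 ± 0.19 (edgeR adjusted p = 0.00479) and held with each library left out, while the platelet-type Pfkp had -1.16 ± 0.19 (edgeR adjusted p = 0.0186) in a call that stayed in 4 of the 12 such fits. The aldolase gene Aldoa had -1.01 ± 0.17 (edgeR adjusted p = 0.0214), called in 4 of the 12 fits, and its relative Aldoc rose by 3.31 ± 0.21 in KO cells and 4.25 ± 0.22 in WT cells and was not called (-0.94 ± 0.28, edgeR adjusted p = 0.233). Slc2a1, Gpi1, Pfkp, Aldoa and Aldoc were picked after their values were seen. Gpi1, Pfkp and Aldoa kept their sign in all 12 fits.

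Tpi1, the isomerase that joins both arms of the pathway, had the largest difference of the glycolysis list. It had 234, 250.01 and 338 CPM in KO hypoxia and 60.5, 61.1 and 59.8 in KO normoxia, against 1490.1, 1342 and 938 in WT hypoxia and 65.4, 81.1 and 59.7 in WT normoxia. The normoxia groups overlapped, and in hypoxia the highest KO library was well below the lowest WT library. Tpi1 rose 4.53-fold in KO cells and 18.3-fold in WT cells (-2.01 ± 0.25, edgeR adjusted p = 0.00509), called with each library left out. Pgk1 (chromosome X, 106187100 to 106203699), which makes the first ATP of the pathway, had 339, 355 and 564 CPM in KO hypoxia and 104, 118 and 113 in KO normoxia, against 1884, 1572 and 1154 in WT hypoxia and 117, 131 and 116 in WT normoxia. KO hypoxia library 3 was the highest and WT hypoxia library 3 the lowest of their groups, and the groups did not overlap. Its interaction of -1.75 ± 0.28 (edgeR adjusted p = 0.0196) stayed called only without one or the other of those 2 libraries.

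In lower glycolysis, the mutase Pgam1 (-1.21 ± 0.17) and the enolase Eno1 (-1.43 ± 0.21) had an edgeR adjusted p of 0.0101 each, calls lost only without KO hypoxia library 1. The pyruvate kinase Pkm was the most abundant, at 854, 827 and 1212 CPM in KO hypoxia and 269, 287 and 326 in KO normoxia, against 3509, 3006 and 2434 in WT hypoxia and 364, 419 and 361 in WT normoxia. It was higher in every hypoxia library than in any normoxia library. Its interaction was -1.25 ± 0.22 (edgeR adjusted p = 0.0307), called only without KO hypoxia library 3, WT hypoxia library 3 or WT normoxia library 2 among the fits with a library left out. Ldha, the lactate dehydrogenase subunit that regenerates NAD+ for glycolysis, had 309, 323 and 451 CPM in KO hypoxia and 147, 139 and 149 in KO normoxia, against 1741, 1542 and 1246 in WT hypoxia and 179, 211 and 152 in WT normoxia. No KO hypoxia library reached a WT hypoxia library. Ldha rose 2.49-fold in KO cells and 8.35-fold in WT cells (-1.74 ± 0.23, edgeR adjusted p = 0.00597), called with each library left out.

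Slc16a1, which encodes the lactate exporter MCT1, was the 1 gene of the glycolysis list that was called higher. It had 215, 215 and 222 CPM in KO hypoxia and 148, 163 and 143 in KO normoxia, against 136, 120.1 and 127 in WT hypoxia and 145, 148 and 128 in WT normoxia. The KO hypoxia libraries were above all others, and the WT groups overlapped. Slc16a1 rose by 0.53 ± 0.08 in KO cells and had -0.14 ± 0.08 in WT cells, an interaction of 0.66 ± 0.11 (edgeR adjusted p = 0.0192) that was lost without KO hypoxia library 1, KO normoxia library 1, WT hypoxia library 2 or WT normoxia library 1. Slc16a3, the exporter MCT4, rose by 3.58 in KO cells and 4.42 in WT cells and was not called (-0.83 ± 0.59, edgeR adjusted p = 0.715), and the exporters were not tested against each other. Both exporters were picked after their values were seen. Counts of Gapdh, likewise picked after its values were seen, were low for a glycolysis enzyme (10.3 to 17.8 CPM in KO hypoxia against 34.4 to 124 in WT hypoxia). Many genes of this pathway have near-identical pseudogenes, so their reads may be split.

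**Figure D3:**
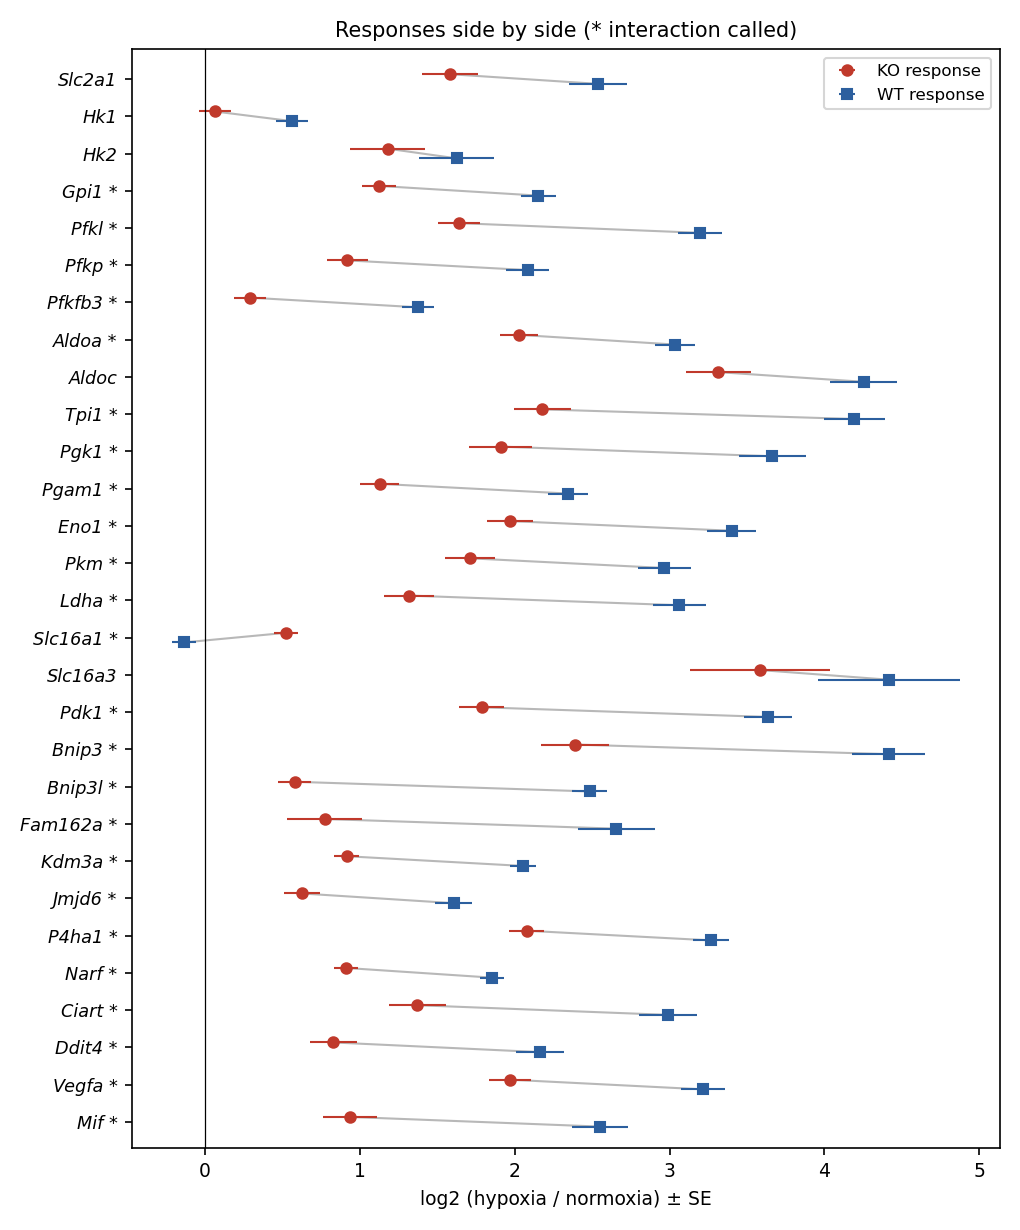
Log2 response to hypoxia with its SE of 29 genes of glycolysis and other hypoxia functions, red circles for KO and blue squares for WT, with an asterisk on genes called in the interaction (calls from 3 libraries in each group). The KO circle lies to the left of the WT square for every gene drawn except Slc16a1, and Aldoc, Slc2a1, Hk1, Hk2 and Slc16a3 were not called. The genes drawn were picked, and those outside the glycolysis list are all genes called lower, so their shared direction follows from the choice. Over the whole lists, the interaction was below 0 for 19 of 22 glycolysis genes, 9 of 22 secreted and membrane factors and 18 of 29 regulators and clock genes (45.5% of all genes tested).

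The lists of chromatin and collagen enzymes hold dioxygenases, which need oxygen for their reaction. Kdm3a, which removes methyl groups from lysine 9 of histone H3, had 250.1, 223 and 258 CPM in KO hypoxia and 130.2, 132 and 126 in KO normoxia, against 500.4, 447 and 502 in WT hypoxia and 116, 108 and 126 in WT normoxia. The replicates of each group were close together and the KO hypoxia libraries lay between the normoxia and the WT hypoxia libraries. Kdm3a rose 1.89-fold in KO cells and 4.15-fold in WT cells, an interaction of -1.14 ± 0.11 (edgeR adjusted p = 0.00136) called with each library left out. Jmjd6, a relative with hydroxylase activity, had 60.6, 70.4 and 67.3 CPM in KO hypoxia and 44.0, 42.7 and 41.6 in KO normoxia, against 159, 141 and 110.0 in WT hypoxia and 43.2, 49.6 and 42.0 in WT normoxia. The WT hypoxia libraries were the highest without overlap. Its interaction of -0.98 ± 0.16 (edgeR adjusted p = 0.0210) was lost in 7 of the 12 fits, without KO hypoxia library 1 or 3, KO normoxia library 1 or 2, WT hypoxia library 1 or 2, or WT normoxia library 1. These 2 were called lower among 18 tested JmjC genes, with a median interaction of -0.09.

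P4ha1, the catalytic subunit of collagen prolyl 4-hydroxylase, had 82.0, 75.9 and 103 CPM in KO hypoxia and 21.7, 20.2 and 19.9 in KO normoxia, against 271, 233 and 239 in WT hypoxia and 27.2, 26.05 and 23.8 in WT normoxia. The 4 groups did not overlap in any pair. It rose 4.22-fold in KO cells and 9.63-fold in WT cells, an interaction of -1.19 ± 0.15 (edgeR adjusted p = 0.00509) called with each library left out. P4ha1 was the 1 call, lower, among 10 tested collagen and lysyl hydroxylases, whose median interaction was -0.58.

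Regulators and clock genes gave 3 calls among 29 tested, all lower, with a median interaction of -0.29. Narf, a nuclear protein that binds prelamin A, had 91.1, 86.2 and 93.1 CPM in KO hypoxia and 45.4, 48.9 and 49.5 in KO normoxia, against 255, 240.4 and 273 in WT hypoxia and 71.5, 64.7 and 76.3 in WT normoxia. KO libraries were below WT libraries in both conditions without overlap, with a difference of -1.51 in hypoxia and -0.56 in normoxia, both called (9.84% and 0.0228% of all genes tested were). Its interaction was -0.94 ± 0.11 (edgeR adjusted p = 0.00290), called with each library left out. Ciart, a repressor of the circadian clock, had 9.83, 13.1 and 13.5 CPM in KO hypoxia and 4.49, 5.52 and 4.04 in KO normoxia, against 41.3, 45.9 and 29.3 in WT hypoxia and 4.38, 4.85 and 5.39 in WT normoxia. The normoxia groups overlapped and the hypoxia groups did not. Ddit4, an inhibitor of mTORC1 signalling, had 74.2, 87.5 and 92.9 CPM in KO hypoxia and 48.1, 53.5 and 41.6 in KO normoxia, against 304, 267 and 198 in WT hypoxia and 61.2, 60.7 and 49.7 in WT normoxia. Its KO rise was small beside the WT rise. The interactions of Ciart (-1.62 ± 0.26, edgeR adjusted p = 0.0172) and Ddit4 (-1.34 ± 0.21, edgeR adjusted p = 0.0173) were both lost without KO hypoxia library 1, KO normoxia library 1 or 2, WT hypoxia library 1 or 2, or WT normoxia library 1.

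Secreted factors came next. Vegfa, the vascular growth factor, had 104, 98.0 and 119.9 CPM in KO hypoxia and 26.5, 28.5 and 27.1 in KO normoxia, against 298, 257 and 243 in WT hypoxia and 25.9, 24.1 and 35.8 in WT normoxia. Both genotypes rose and the hypoxia groups did not overlap. Its interaction of -1.25 ± 0.19 (edgeR adjusted p = 0.0134) was lost without KO hypoxia library 1, WT hypoxia library 1 or WT normoxia library 1. Mif, a cytokine that restrains macrophage migration, had 98.6, 96.9 and 127 CPM in KO hypoxia and 61.2, 57.0 and 50.6 in KO normoxia, against 465, 461 and 300.5 in WT hypoxia and 69.0, 81.0 and 59.1 in WT normoxia. The KO hypoxia libraries were nearer to normoxia than to WT hypoxia. Its interaction was -1.62 ± 0.25 (edgeR adjusted p = 0.0172) and was lost in the same 6 fits as that of Ciart. Over the 22 tested secreted and membrane factors these were the 2 calls, both lower, and the median interaction was 0.06. RANKL, the osteoclast factor at the centre of the study, is encoded by Tnfsf11, which was below the filter. It had 2, 3 and 6 counts in KO hypoxia and 6, 7 and 3 in KO normoxia, against 2, 3 and 9 in WT hypoxia and 4, 7 and 0 in WT normoxia. Summed counts were 11 in KO hypoxia, 16 in KO normoxia, 14 in WT hypoxia and 11 in WT normoxia. From RNA-seq of these cultures the study reports a rise of Tnfsf11 in hypoxic WT cells, much smaller without Hif1a. It also reports the rise by quantitative RT-PCR and, for the protein, by flow cytometry, and that both were abolished without Hif1a. Further evidence in the study is HIF-1α binding at the Rankl promoter by ChIP and a reporter assay in a B cell line. In these counts a difference of Tnfsf11 responses was not detectable. Tnfrsf11b, the gene of the decoy receptor of RANKL, had 0 to 3 counts per library. Among 17 tested osteoclast-regulating cytokines edgeR called 0, with 3 at an unadjusted p under 0.05 (10.2% of all genes tested) and 0 called by DESeq2.

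Some genes outside the lists rose in WT cells and passed no test in KO cells. Endou, a poly(U)-specific endoribonuclease linked to B cell survival, had 79.0, 74.9 and 80.1 CPM in KO hypoxia and 75.1, 80.0 and 77.4 in KO normoxia, against 282, 216 and 139 in WT hypoxia and 63.9, 63.0 and 68.1 in WT normoxia. The KO groups overlapped fully, and the WT hypoxia libraries spread over a wide range above them. Its response was 0.01 ± 0.18 in KO cells and 1.71 ± 0.19 in WT cells, an interaction of -1.70 ± 0.26 (edgeR adjusted p = 0.0173) that stayed called only without KO hypoxia library 3, WT hypoxia library 1 or WT hypoxia library 3. Abhd18, which belongs to the α/β hydrolase family by its name, had 13.5, 12.1 and 14.0 CPM in KO hypoxia and 13.4, 13.8 and 16.4 in KO normoxia, against 53.2, 38.9 and 32.5 in WT hypoxia and 15.8, 12.1 and 15.8 in WT normoxia. Its KO groups overlapped as well. The interaction of -1.65 ± 0.24 (edgeR adjusted p = 0.0101) held with each library left out. Col6a6, a chain of type VI collagen, was at very low levels, 0.0916, 0.161 and 0.131 CPM in KO hypoxia and 0.0558, 0.173 and 0.276 in KO normoxia, against 2.67, 1.94 and 2.24 in WT hypoxia and 0.145, 0.0932 and 0.278 in WT normoxia. Only the WT hypoxia libraries brought it past the filter, so its value of -4.02 ± 0.78 (edgeR adjusted p = 0.0457) is a description of a gene that had to be high there. It stayed called only without KO normoxia library 1, WT hypoxia library 3 or WT normoxia library 3.

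Ifit1bl1, a member of the interferon-induced IFIT family, fell in both genotypes. It had 1.77, 1.42 and 1.93 CPM in KO hypoxia and 66.5, 58.4 and 62.3 in KO normoxia, against 5.30, 3.66 and 5.64 in WT hypoxia and 52.8, 49.8 and 68.4 in WT normoxia. The KO hypoxia libraries were the lowest and the normoxia groups overlapped. Its fall was larger in KO cells (-5.19 ± 0.19) than in WT cells (-3.55 ± 0.17), an interaction of -1.64 ± 0.24 (edgeR adjusted p = 0.0110) that was lost without KO hypoxia library 1 or WT hypoxia library 1. The listed interferon-stimulated genes fell in both genotypes too, all 32 of 32 tested in KO cells and all 32 in WT cells, with median responses of -3.23 in KO and -2.61 in WT (15.7% and 16.3% of all genes tested were called lower in these responses). Their interaction was below 0 for all 32 genes (45.5% of all genes tested), with a median of -0.55. Even so, edgeR called 0 of them and DESeq2 called 0, with 7 at an unadjusted p under 0.05, all lower (4.82% of all genes tested). Without KO hypoxia library 3 the median was -0.93.

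Genes with a higher KO response were changed by less. Slc6a19, a transporter of neutral amino acids, led them with 8.03, 8.42 and 10.2 CPM in KO hypoxia and 6.31, 7.04 and 5.87 in KO normoxia, against 3.003, 2.68 and 2.87 in WT hypoxia and 4.92, 5.13 and 5.70 in WT normoxia. It rose in KO cells and fell in WT cells, without overlap in either. The interaction was 1.35 ± 0.21 (edgeR adjusted p = 0.0142), lost without KO normoxia library 1 or WT hypoxia library 2. Ctps, the CTP synthase of nucleotide synthesis, had 25.2, 25.99 and 22.3 CPM in KO hypoxia and 23.9, 24.1 and 24.97 in KO normoxia, against 11.1, 12.8 and 15.5 in WT hypoxia and 26.6, 26.8 and 25.9 in WT normoxia. Only the WT hypoxia libraries were low. Its interaction of 1.02 ± 0.16 (edgeR adjusted p = 0.0147) was lost without KO hypoxia library 1, KO normoxia library 1, WT hypoxia library 2 or WT normoxia library 1. Txnrd1, the cytosolic thioredoxin reductase, had 177, 144 and 184 CPM in KO hypoxia and 51.3, 51.2 and 60.4 in KO normoxia, against 112, 111 and 139 in WT hypoxia and 75.2, 74.6 and 66.0 in WT normoxia. Its KO libraries were below the WT libraries in normoxia and above them in hypoxia, without overlap in either, so part of the interaction lay in normoxia. Txnrd1 rose in both genotypes and more in KO cells, an interaction of 0.89 ± 0.16 (edgeR adjusted p = 0.0309). The call stayed in 5 of the 12 fits, without KO hypoxia library 2, KO normoxia library 3, WT hypoxia library 3, WT normoxia library 2 or WT normoxia library 3.

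Others of these genes work in cell division, ribosome assembly and nuclear transport. E2f8, a repressor of the cell cycle transcription programme, had 58.2, 53.2 and 53.6 CPM in KO hypoxia and 42.7, 53.5 and 48.9 in KO normoxia, against 29.6, 25.9 and 37.03 in WT hypoxia and 62.6, 49.9 and 50.7 in WT normoxia. It fell in WT cells, and the KO groups overlapped. Its interaction was 1.00 ± 0.19 (edgeR adjusted p = 0.0344). The ribosome assembly factor Bysl (0.82 ± 0.15) and the nuclear pore subunit Nup93 (0.75 ± 0.14) shared this pattern, with a WT response of -0.73 and -0.70 and a KO response of 0.09 and 0.05. Trim37, a ubiquitin ligase, Dtx1, a regulator of Notch signalling, Uap1l1 and the chemokine gene Ccl25 had interactions of 0.79, 0.70, 0.90 and 0.88. The tubulin gene Tubb2b had 0.67 and Tmem150a, which encodes a membrane protein, 0.97. Each of these 9 calls was lost without KO hypoxia library 1, KO normoxia library 1, WT hypoxia library 1 or 2, or WT normoxia library 1. Most were lost in further fits too, and Ccl25 stayed called only without WT hypoxia library 3. The values of these genes in the 12 fits lay between 0.61 and 1.19.

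Proliferation genes as a group leaned the same way without a call. All 28 tested genes of DNA replication and mitosis had an interaction above 0 (45.5% of all genes tested lay below 0), with a median of 0.43 and with median responses of -0.29 in KO cells and -0.69 in WT cells. A shared sign was not particular to this list. Below 0 lay 0 of 17 neutrophil genes and 10 of 10 megakaryocyte and platelet genes, also without a call. Of the 28 genes edgeR called 0, with 16 at an unadjusted p under 0.05, all higher (5.39% of all genes tested). DESeq2 called 4 (2.63% of all genes with an adjusted p). Top2a, the topoisomerase of dividing cells, had 652, 664 and 572 CPM in KO hypoxia and 576, 703 and 603 in KO normoxia, against 375, 297 and 455 in WT hypoxia and 609, 559 and 557 in WT normoxia. The WT hypoxia libraries were the lowest, with an interaction of 0.62 ± 0.19 (edgeR adjusted p = 0.227). Mki67, the proliferation marker, had 0.51 ± 0.20 (edgeR adjusted p = 0.405). The median of the list was 0.10 with only the libraries free of Y-linked reads and 0.57 without WT hypoxia library 3.

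Amino acid and integrated stress response genes were called higher for 21 of 30 genes in KO cells and 12 of 30 in WT cells, with 1 called lower in each (14.5% of all genes tested were called higher in KO cells and 11.4% in WT cells), and the median interaction was 0.17. Here edgeR called 0, with 10 at an unadjusted p under 0.05, all higher (5.39% of all genes tested). DESeq2 called 3 (2.63% of all genes with an adjusted p). Aars, which charges the tRNA for alanine, had 283, 260.4 and 310.3 CPM in KO hypoxia and 183, 195 and 167 in KO normoxia, against 187, 201 and 213 in WT hypoxia and 190.3, 196 and 183 in WT normoxia. The KO hypoxia libraries were above all others, with an interaction of 0.57 ± 0.12 (edgeR adjusted p = 0.0589) that was called in 7 of the other settings. Ribosome biogenesis genes (0 of 24 called by edgeR, 8 at an unadjusted p under 0.05, 0 by DESeq2) had a median of 0.21, and nuclear-encoded respiratory chain genes (0 of 40 called by edgeR, 5 at an unadjusted p under 0.05, 1 by DESeq2) one of 0.15. Of all genes tested, 10.2% were at an unadjusted p under 0.05.

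**Figure D4:**
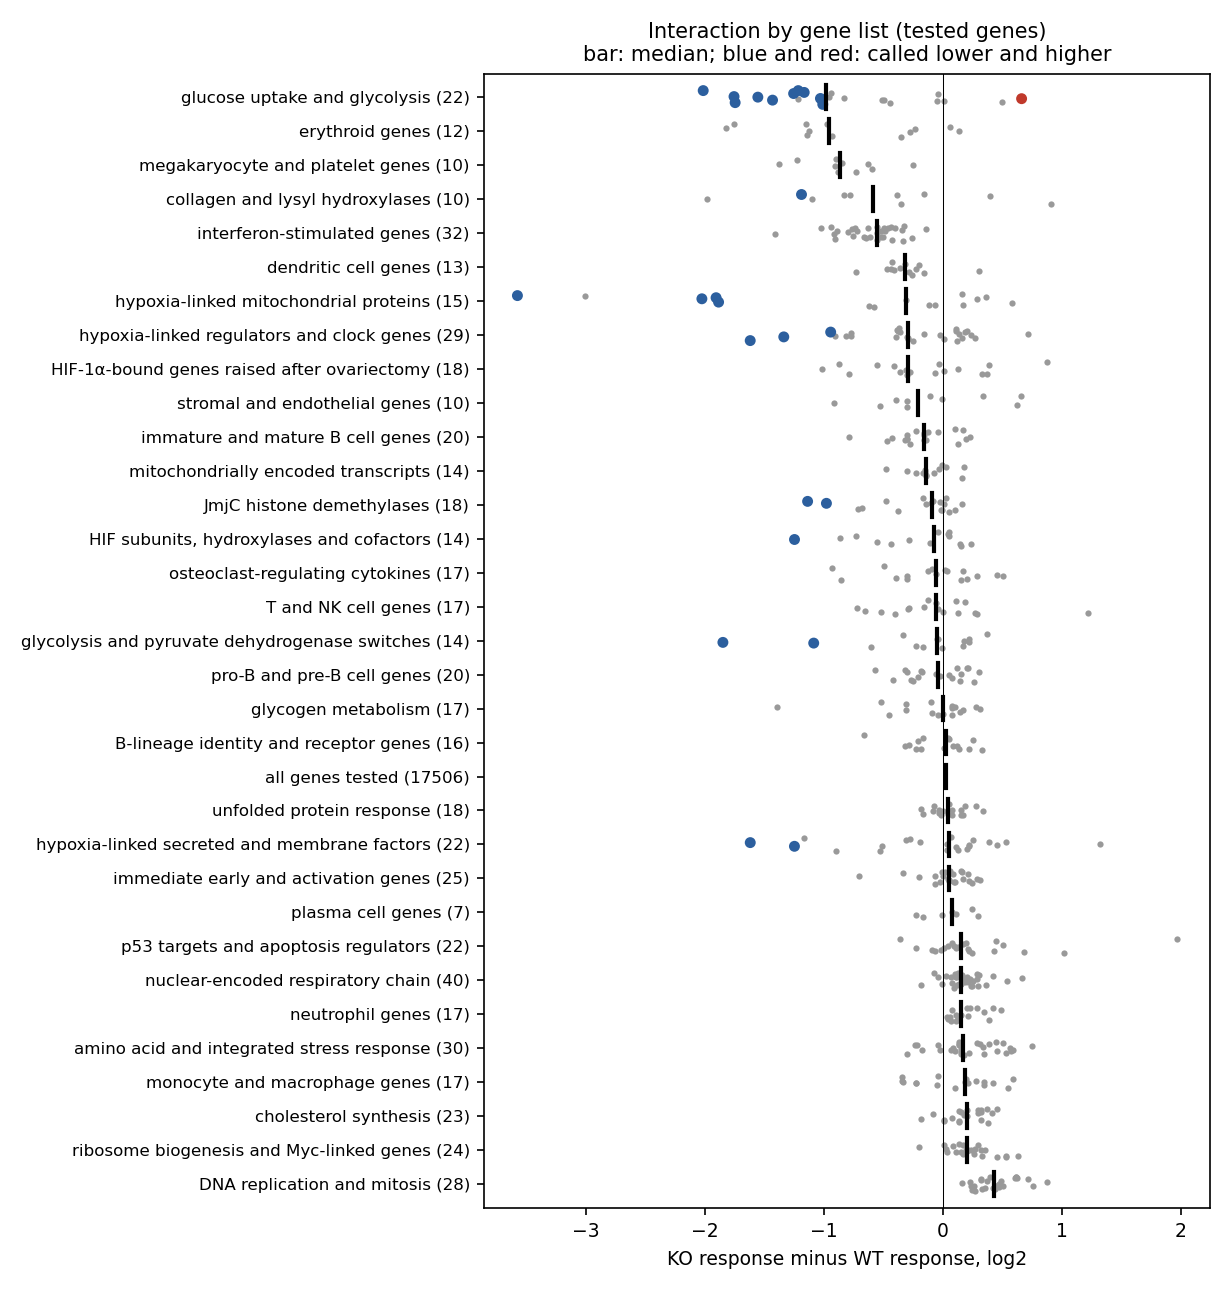
Interaction on the log2 scale (KO response minus WT response) of the tested members of each gene list, ordered by the median, which is drawn as a bar. Blue and red points are genes called lower and higher, grey points are not called, and the number of tested genes stands in brackets. Blue points gather in the lists of glycolysis and other hypoxia functions, and all 28 DNA replication and mitosis genes lie to the right of 0.

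Several strongly induced genes were not called, which does not show that their responses were alike. Egln3, a prolyl hydroxylase that senses oxygen, had 54.3, 50.9 and 88.2 CPM in KO hypoxia and 3.99, 5.07 and 3.25 in KO normoxia, against 140.0, 100.4 and 69.7 in WT hypoxia and 5.17, 5.75 and 5.26 in WT normoxia. The hypoxia groups overlapped, and the interaction was -0.29 ± 0.40 (edgeR adjusted p = 0.875). Ankrd37, an ankyrin repeat gene, had 14.2, 15.4 and 18.4 CPM in KO hypoxia and 0.307, 0.382 and 0.276 in KO normoxia, against 159, 158 and 143 in WT hypoxia and 2.24, 1.93 and 1.33 in WT normoxia. It was lower in KO in both conditions, by -3.26 in hypoxia and -2.49 in normoxia, so that its responses of 5.62 ± 0.20 in KO and 6.40 ± 0.17 in WT gave an interaction of -0.77 ± 0.31 (edgeR adjusted p = 0.405). Epas1, which encodes HIF-2α, rose by 1.03 ± 0.22 in KO cells and 1.59 ± 0.23 in WT cells (-0.56 ± 0.31, edgeR adjusted p = 0.608). These 3 genes were picked after their values were seen. In the list of HIF subunits, hydroxylases and cofactors the 1 call among 14 tested was Pkm, which is listed there as a cofactor.

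The lists of B-lineage genes and of genes of other cell types held no edgeR call. The B-lineage list, of the isolated cell type itself, had 0 of 16 called by edgeR and a median of 0.03. At an unadjusted p under 0.05 it had 4 genes (10.2% of all genes tested), and DESeq2 called 1 (2.63% of all genes with an adjusted p). The monocyte list (0 of 17, 0 at an unadjusted p under 0.05, 0 by DESeq2) had a median of 0.19, and the neutrophil list (0 of 17, 0 and 0) one of 0.16. Erythroid genes had the second lowest median of all lists, -0.95, with 0 of 12 called by edgeR, 1 at an unadjusted p under 0.05 and 0 by DESeq2. KO normoxia library 1 had the highest summed erythroid level, 3090 CPM, against 462 to 1040 in KO hypoxia, 411 to 763 in WT hypoxia and 549 to 747 in WT normoxia. Without that library the median was 0.30, while with the monocyte and neutrophil covariates it was 0.16. Megakaryocyte and platelet genes had a median of -0.87, with 0 of 10 called by edgeR, 2 at an unadjusted p under 0.05 and 0 by DESeq2, and a median of -0.20 without KO normoxia library 1. The remaining lists, among them unfolded protein response, cholesterol synthesis, p53 target, early B cell and dendritic cell genes, had 0 genes called by edgeR, 0 to 5 at an unadjusted p under 0.05 in each and at most 1 called by DESeq2, with medians between -0.32 and 0.20.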

How the data were processed

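Raw read counts per Ensembl gene were deposited by the authors in 1 table, with 12 columns for the 12 libraries and no column of any other sample. B cells were isolated with magnetic beads and sequenced from total RNA libraries. The submitters' processing notes name CASAVA, Bowtie 0.12.2 and build mm10. For the counting tool, the annotation release and strand the entry is "not given in the sources used here", and antisense partners cannot be told apart. Counts were fitted with edgeR 4.0.16 in R 4.3.3 (filterByExpr, TMM factors of 0.969 to 1.039, robust quasi-likelihood test) as 1 model of the 4 groups with 8 residual degrees of freedom. The contrast was (KO hypoxia minus KO normoxia) minus (WT hypoxia minus WT normoxia), with Benjamini-Hochberg adjustment over the 17506 genes kept. The 29477 genes left out held 0.0738% of the reads. CPM values are TMM-scaled, except Y-linked, Xist and summed marker levels, which are scaled by total counts. Depth was 27629175 to 36880082 counts per library, and the median SE of the interaction was 0.23. The steps were tested on simulated data. Some items are not reported here. Alternatives were other scaling and filters, DESeq2 1.42.0, a replicate block, a fold threshold, subsets by Y-linked reads, cell type covariates and leaving out each library.

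Members and gene lists were chosen with earlier results of these data known. The genes named were Hif1a, Cd79a, Tnfsf11 and Tnfrsf11b, then among called genes the 12 most negative and the 12 most positive interactions with a mean of at least 1 CPM in the highest group (predicted models, pseudogenes and immunoglobulin segments aside), up to 5 called members of each list by adjusted p (in a list without calls up to 2 members with the highest mean CPM, as values) and the 6 called genes with the smallest adjusted p. Gene positions are from GENCODE M21 and promoters from RefSeq on GRCm38.p6.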

Additional observations from a re-analysis of the deposited data

Results flagged for a closer look

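Each named gene below was singled out because the KO and WT responses to hypoxia differed in the edgeR test of the difference itself (adjusted p under 0.05 over all genes tested). Lower in KO, on the log2 scale of KO response minus WT response, were Bnip3l (-1.91), Kdm3a (-1.14), Pdk1 (-1.85), Bnip3l-ps (-1.91), Narf (-0.94), Pfkl (-1.55), P4ha1 (-1.19), Tpi1 (-2.01), Ldha (-1.74), Pfkfb3 (-1.08) and Abhd18 (-1.65). These 11 genes stayed called with each of the 12 libraries left out in turn.

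Pgam1 (-1.21), Eno1 (-1.43), Ifit1bl1 (-1.64), Vegfa (-1.25), Mif (-1.62), Ciart (-1.62), Ddit4 (-1.34), Endou (-1.70), Bnip3 (-2.02), Pgk1 (-1.75), Jmjd6 (-0.98), Pkm (-1.25), Fam162a (-1.88), Col6a6 (-4.02) and Cox4i2 (-3.57) were also lower in KO, and each lost its call without at least 1 library. Higher in KO were Slc6a19 (1.35), Ctps (1.02), E2f8 (1.00), Tmem150a (0.97), Uap1l1 (0.90), Txnrd1 (0.89), Ccl25 (0.88), Bysl (0.82), Trim37 (0.79), Nup93 (0.75), Dtx1 (0.70) and Tubb2b (0.67), and each of these lost its call without at least 1 library too. Of all 38 named calls, 26 were lost without KO hypoxia library 1, 22 without KO normoxia library 1, 23 without WT hypoxia library 2 and 23 without WT normoxia library 1, while 0 were lost without WT hypoxia library 3. All kept their sign.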

How the results depend on the processing

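Against 73 genes called, edgeR called 194 without a filter on low counts, 188 with a replicate block within genotype, 134 when Y-linked reads entered as a covariate, 41 when the mean levels of monocyte and of neutrophil genes did, 3 against a 1.5-fold threshold (Pdk1, Bnip3l and Bnip3l-ps) and 1 (Bnip3l) with only the libraries free of Y-linked reads, where each WT group keeps 1 library that is assumed to vary like the other groups. DESeq2 called 327 of 12413 genes with an adjusted p (2.63%). With only the WT libraries that carry Y-linked reads, chosen after seeing the data, 246 genes were called, of which 144 were higher in KO, and with the block within genotype and no KO hypoxia library 1, chosen likewise, 58 were. Leaving out 1 library gave 18 to 224 calls: 18, 47 and 62 without KO hypoxia library 1, 2 and 3, 21, 38 and 43 without KO normoxia library 1, 2 and 3, 23, 25 and 224 without WT hypoxia library 1, 2 and 3, and 20, 91 and 100 without WT normoxia library 1, 2 and 3. The cause was not tested. The split of 55 lower and 18 higher became 103 and 121 without WT hypoxia library 3, 53 and 47 without WT normoxia library 3, 57 and 34 without WT normoxia library 2, and 21 or 25 lower and 0 higher without KO normoxia library 1 or WT hypoxia library 2, while TMM factors made without immunoglobulin and mitochondrial genes gave 78 and 12 (13.3% higher, against 24.7%). A replicate block over all groups gave 79 calls, 64 of them among the 73, without Bnip3 (edgeR adjusted p = 0.0686), Pgk1 (0.071), Pkm (0.064), Fam162a (0.083), Cox4i2 (0.0527), Col6a6 (0.0504) and Ccl25 (0.0603) of the named genes, and the block within genotype left out Endou (0.064) and Ccl25 (0.0528). Same-numbered KO libraries correlated at 0.182, -0.039 and 0.12 and WT libraries at 0.196, 0.36 and 0.434 in their deviations from the group means. Each WT library correlated best with its own number, and Y-linked reads followed the number in WT libraries, both hints from the data. KO library 2 did not correlate with its own number, so the numbers were not taken to pair the samples. All 73 genes kept their direction in every setting in which they were fitted. Tnfsf11 was below the count filter, and in the fit without it the interaction was -0.99 (edgeR adjusted p = 1.0).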
